A study of Mus musculus with 4 samples.

Results

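The heptad is a group of 7 transcription factors of blood stem cells, TAL1, LYL1, LMO2, GATA2, RUNX1, ERG and FLI1. Described here are the ERG peaks found around the genes that encode them, in 2 mouse leukemias. A peak belongs to a locus when its centre lies in a window set around the gene on the mouse build mm9. The windows run over 114.67 to 114.80 Mb of chromosome 4 for Tal1, 87.18 to 87.28 Mb of chromosome 8 for Lyl1 and 103.70 to 103.88 Mb of chromosome 2 for Lmo2. They run over 88.03 to 88.21 Mb of chromosome 6 for Gata2, 92.60 to 93.10 Mb of chromosome 16 for Runx1, 95.34 to 95.88 Mb of chromosome 16 for Erg and 32.18 to 32.40 Mb of chromosome 9 for Fli1. The rule of this choice uses no peak value, but the loci were chosen with earlier results of these data known. The windows held 21 of the 5738 ERG peaks of leukemia 1 and 18 of the 3751 of leukemia 2. Counted as regions of either list, they held 23 of 6288.

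The study profiled spleen cells of C57BL6 mice with leukemia by chromatin immunoprecipitation and sequencing, a method that maps where a protein sits on DNA. Both leukemias are labelled TgERG, for an ERG transgene, and leukemia 2 is also labelled GATA1s, the usual name of a short form of the blood factor GATA1. An antibody against ERG was used on 1 sample of each leukemia, and control rabbit IgG on another, 4 samples in all. No values of the IgG samples were used here. For the promoter of the transgene, the age of the mice and the number of mice behind a sample, the sources used here give no information. The antibody signal of transgenic ERG and that of the mouse protein cannot be told apart in these data.

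Heptad factors often bind DNA together in blood stem and progenitor cells, and each of the 7 genes is known to be controlled in part by distant enhancers bound by members of the group. TAL1 and LYL1 are related basic helix-loop-helix factors that pair with E proteins on E-box sequences, and LMO2 is a bridging protein that joins them to GATA factors without touching DNA itself. GATA2 binds GATA sequences, RUNX1 binds DNA with its partner CBFB, and ERG and FLI1 are close relatives in the ETS family, which binds sequences around a GGAA core. In acute leukemia, several of these genes are known targets of rearrangement or overexpression.

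Each leukemia has 1 ERG library, so the values below have no replicate error and no test compares the 2 leukemias. The lists give positions only. Each peak is 400 bp wide as deposited, with no height and no depth, and a missing peak does not show that ERG was absent. Intervals on shares are 95% Wilson intervals, which cover counting error only.

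The promoter letters of the genes give a view of ETS sequence at these loci. Matches to GGAA were looked for on both strands, where the other strand reads TTCC, in 300 bases that span 250 before to 50 after a RefSeq transcription start on the build GRCm38.p6. RefSeq sequences were found for 5 of the 7 genes, with 10 starts in all, and none of Lmo2 and Fli1 is printed. The 4 printed here are the start of Lyl1 and the starts of Gata2, from the windows with most peaks, and the second Runx1 start, which with Lyl1 holds the longer ETS match CCGGAA. Each reads 5′ to 3′ on the strand of the gene, with GGAA and TTCC in capitals. The coordinates are those of GRCm38.p6 and cannot be set against the mm9 peaks, so it is not known here whether a peak lies on any of them.
Lyl1, chr8:84701207-84701506, plus strand: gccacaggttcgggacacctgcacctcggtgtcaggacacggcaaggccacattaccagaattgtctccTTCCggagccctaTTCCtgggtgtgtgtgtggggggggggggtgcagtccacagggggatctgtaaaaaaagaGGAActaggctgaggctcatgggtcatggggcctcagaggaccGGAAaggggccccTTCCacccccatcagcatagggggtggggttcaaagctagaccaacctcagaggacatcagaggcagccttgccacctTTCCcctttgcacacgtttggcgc
Gata2 start 1, chr6:88193641-88193940, plus strand: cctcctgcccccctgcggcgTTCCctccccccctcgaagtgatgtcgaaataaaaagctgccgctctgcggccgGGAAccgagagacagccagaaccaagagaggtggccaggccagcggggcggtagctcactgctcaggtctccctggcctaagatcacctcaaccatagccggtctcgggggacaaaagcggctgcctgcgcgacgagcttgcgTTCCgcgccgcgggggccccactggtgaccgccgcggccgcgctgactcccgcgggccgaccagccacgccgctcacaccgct
Gata2 start 2, chr6:88198414-88198713, plus strand: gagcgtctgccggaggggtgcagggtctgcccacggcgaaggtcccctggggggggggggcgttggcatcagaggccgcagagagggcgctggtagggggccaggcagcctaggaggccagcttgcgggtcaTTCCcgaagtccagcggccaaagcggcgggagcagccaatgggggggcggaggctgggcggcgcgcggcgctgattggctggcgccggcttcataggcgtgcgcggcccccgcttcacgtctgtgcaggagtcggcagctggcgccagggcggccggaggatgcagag
Runx1 start 2, chr16:92697280-92697579, minus strand: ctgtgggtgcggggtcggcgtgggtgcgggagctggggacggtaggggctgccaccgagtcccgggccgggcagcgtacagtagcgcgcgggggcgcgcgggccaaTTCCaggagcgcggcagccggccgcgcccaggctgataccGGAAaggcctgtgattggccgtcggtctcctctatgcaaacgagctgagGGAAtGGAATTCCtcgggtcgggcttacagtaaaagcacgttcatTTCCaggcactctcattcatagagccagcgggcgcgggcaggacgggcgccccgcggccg

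All 10 heptad promoters held GGAA on a strand, from 1 to 6 matches with a median of 4. Such a short motif is common, and 96% of the 32851 RefSeq promoters of this length held it, with a median of 3. The Lyl1 promoter and Runx1 start 2 each had 6 GGAA matches, a number reached by 15.7% of all promoters. The Lyl1 promoter had 2 CCGGAA matches, at bases 70 and 184 of the printed run, and 3.59% of all promoters had 2 or more. Runx1 start 2 had 1 such match at base 145, and the other 8 heptad promoters had none, both Gata2 promoters included. CCGGAA thus occurred in 2 of 10 heptad promoters, beside 14.9% of all promoters, and each CCGGAA match contains 1 of the GGAA matches counted above. AGATAA, a motif bound by the family of GATA2, was present in 2 of the 10 (1 of Tal1 and 1 of Erg), beside 11.2% of all promoters. The E-box CANNTG was present in 5 of the 10, beside 72.3%. Among 11 other genes of the blood stem-cell network (Ldb1, Cbfb, Spi1, Meis1, Gfi1b, Myb, Gata1, Etv6, Hhex, Zfpm1 and Mecom), 10 had an entry with 13 starts in all. Of those 13, GGAA was in 13 and CCGGAA in 1, the promoter of Meis1, a homeobox factor of blood stem cells. These matches describe letters and do not show ERG binding.

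ERG peaks were spread unevenly over the 7 loci. Leukemia 1 had 7 peaks at Gata2, 6 at Lyl1, 3 at Lmo2, 3 at Runx1, 1 at Tal1, 1 at Erg and none at Fli1. Leukemia 2 had 5 at Gata2, 5 at Lyl1, 4 at Runx1, 3 at Lmo2, 1 at Erg and none at Tal1 or Fli1. Lyl1 and Gata2 together gave 13 of the 21 peaks of leukemia 1 and 10 of the 18 of leukemia 2, although their windows make up 280 kb of the 1850 kb searched. Erg and Fli1, the ETS genes, had 1 peak per list in 760 kb. At 100 kb of window, Lyl1 had 6 and 5 peaks in leukemia 1 and leukemia 2, Gata2 3.89 and 2.78, Lmo2 1.67 in both, Runx1 0.6 and 0.8, and Erg 0.185 in both. Tal1 had 0.769 in leukemia 1. The whole lists averaged 0.227 and 0.148 peaks per 100 kb between the first and last peak of each chromosome. Peak density was thus above the average of the list in 5 of the windows in leukemia 1 (not Erg or Fli1) and in 5 of them in leukemia 2 (not Tal1 or Fli1). In leukemia 2 a single peak is enough for this at every window length, as at Erg. Of equal stretches laid over the genome, 10.7% (100 kb) to 34.9% (540 kb) had a leukemia 2 peak. In leukemia 1 a single peak is enough in windows of up to 220 kb, as at Tal1. Of stretches of those lengths, 14.5% (100 kb) to 25% (220 kb) had one.

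**Figure D1:**
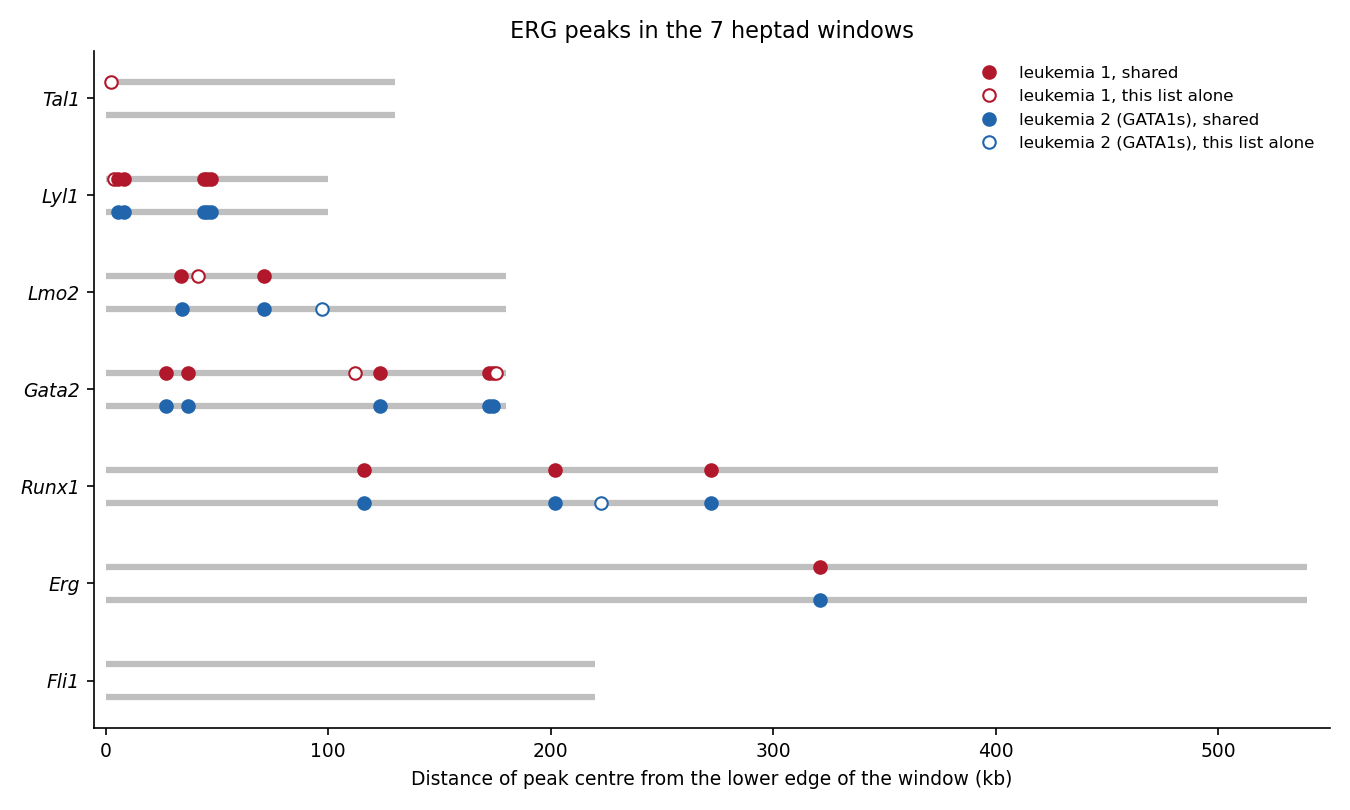
Position of each ERG peak centre in its window, as distance in kb from the lower edge of the window, with leukemia 1 on the upper and leukemia 2 on the lower line of each locus; filled circles are peaks found in both lists and open circles peaks of 1 list. The 2 groups of 3 circles at Lyl1 in leukemia 1 overlap at this scale, and both lines of Fli1 are empty.

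**Figure D2:**
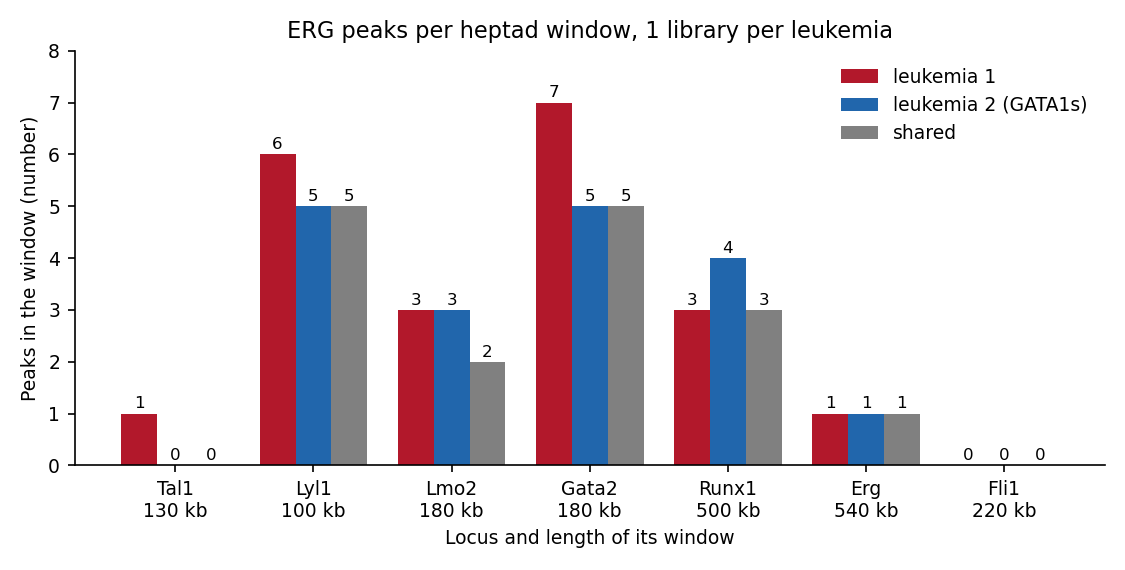
Number of ERG peaks in each heptad window for leukemia 1, leukemia 2 and the shared peaks, with the length of the window under the gene name and 1 library per leukemia. Gata2 and Lyl1 carry the highest bars with 7 and 6 peaks in leukemia 1, and Fli1 has none.

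Peaks in the heptad windows were mostly found in both leukemias. Sharing means here that peaks of both lists have 1 bp or more in common. Of the 21 heptad peaks of leukemia 1, 16 were shared, or 76.2% (54.9 to 89.4), beside 55.8% of all peaks of that list. Of the 18 heptad peaks of leukemia 2, the same 16 regions made up 88.9% (67.2 to 96.9), beside 85.3% of that whole list. The interval of the leukemia 1 share includes the value of its list, and the leukemia 2 share lay close to that of its list. Lyl1 and Gata2, where peaks lie close together, gave 10 of the 16. Peaks of a group are not independent, so these intervals may be too narrow, and they are not a test. Shared peaks occurred at 5 of the 7 loci, with 5 at Lyl1, 5 at Gata2, 3 at Runx1, 2 at Lmo2 and 1 at Erg. The 5 peaks of leukemia 1 alone were at Gata2 (2), Tal1, Lyl1 and Lmo2 (1 each), and the 2 peaks of leukemia 2 alone were at Lmo2 and Runx1. Of the 5 peaks of leukemia 1 alone, 2 (at Lyl1 and Gata2) had a leukemia 2 centre within 5 kb, beside 9.54% of all such peaks. Of the 2 peaks of leukemia 2 alone, none had a leukemia 1 centre that close, beside 19.8%. The number of peaks in leukemia 1 was 1.17 times that in leukemia 2 over the windows, beside 1.53 times over the lists.

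Lyl1 encodes a helix-loop-helix factor of blood progenitors that can stand in for TAL1 in adult stem cells. Its window had the densest ERG peaks of the 7, arranged in 2 tight groups. In leukemia 1 the lower group had peaks at chr8:87183729-87184128, chr8:87185435-87185834 and chr8:87187875-87188274. Their centres followed each other at 1706 and 2440 bp. The upper group began 35931 bp further on, with peaks at chr8:87223806-87224205, chr8:87225384-87225783 and chr8:87227306-87227705, spaced by 1578 and 1922 bp. Leukemia 2 repeated 5 of these 6 peaks, at chr8:87185437-87185836, chr8:87187975-87188374, chr8:87223818-87224217, chr8:87225374-87225773 and chr8:87227307-87227706. The centres of these 5 pairs were 2, 100, 12, 10 and 1 bp apart. The upper group was therefore complete in both leukemias, with spacings of 1556 and 1933 bp in leukemia 2. The peak missing from leukemia 2 was the outermost of the lower group, and the nearest leukemia 2 centre lay 1708 bp away.

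Few fixed stretches of the same length held as many ERG peaks as the Lyl1 window. The genome was laid out in fixed tiles of the same length, from the first base of each chromosome to its last peak, giving 26182 tiles of 100 kb. Any peak of leukemia 1 was present in 14.5% of these tiles, and 6 or more peaks in 0.0458% (12 tiles). For leukemia 2, 10.7% of tiles had a peak and 0.0458% had 5 or more. Shared peaks numbered 5 or more in 6 tiles (0.0229%), and no tile held more than 5. The window was placed around the gene and the tiles were not, so these shares describe where the locus stands and are not a test. A tile edge fell between the 2 Lyl1 groups, so no tile held all their peaks and the locus itself is not among those counted. Fixed tiles can split other groups in the same way. With shifted tiles the shares were 0.0497% (13 tiles) for leukemia 1 and 0.0267% (7 tiles) for leukemia 2. Both Lyl1 groups then fell in a single tile, so the locus itself is among those counted there. In the gene order of GRCm38.p6, Lyl1 lies between Trmt1, a tRNA methyltransferase, and Nfix, a transcription factor gene. A peak of the window can therefore lie nearer to another gene than to Lyl1.

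Lmo2, the bridging factor and a known T-cell oncogene, had 4 regions, of which 2 were shared. The lowest, chr2:103733929-103734328 in leukemia 1 and chr2:103733952-103734351 in leukemia 2, had centres 23 bp apart. The other shared region, chr2:103771008-103771407 and chr2:103770841-103771240, had centres 167 bp apart, the widest offset of the 16 shared heptad regions. Leukemia 1 alone had chr2:103741499-103741898, 7570 bp from the lowest region. Leukemia 2 alone had chr2:103797060-103797459, with the nearest leukemia 1 centre 26.1 kb away. Each leukemia thus had 3 peaks at Lmo2, with the third at a different place. Of 14550 tiles of 180 kb, 22% had a peak of leukemia 1 and 4.38% had 3 or more. For leukemia 2, 16.9% had a peak and 2.03% had 3 or more, and 4.81% of tiles had 2 or more shared peaks.

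The single Tal1 peak lay at the lower edge of its window. TAL1 is the helix-loop-helix factor needed to form blood stem cells. The peak, chr4:114672321-114672720, was found in leukemia 1 alone, 2.52 kb inside the edge. Leukemia 1 also had peaks 10.1 kb below the window, at chr4:114659661-114660060, and 5.93 kb above it, at chr4:114805730-114806129. Between the peak inside and the one above ran 133 kb with no peak of either list. The nearest leukemia 2 centre to the Tal1 peak was 583 kb away. Leukemia 2 had no peak from 109349224 to 115255906 on chromosome 4, a stretch of 5.91 Mb. Of the 3731 intervals between neighbouring leukemia 2 peaks, 61 (1.63%) were as long or longer, and together they made up 22.4% of the length covered by leukemia 2. A tile of 130 kb held a peak in 17.7% of cases in leukemia 1 and in 13.2% in leukemia 2, so a window with 1 or no peak is common in these lists. In GRCm38.p6 the neighbours of Tal1 are Stil, a centriole gene, and Pdzk1ip1.

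Gata2 had the largest number of peaks, 7 in leukemia 1 and 5 in leukemia 2. GATA2 maintains blood stem cells, and its gene is known for a far upstream enhancer and an enhancer within an intron. The lower part of the window had a pair at chr6:88056799-88057198 and chr6:88066714-88067113 in leukemia 1. In leukemia 2 the pair lay at chr6:88056757-88057156 and chr6:88066688-88067087. The 2 members were 9915 bp apart in leukemia 1 and 9931 bp apart in leukemia 2. A further shared region lay in the middle, at chr6:88153026-88153425 and chr6:88153013-88153412, with centres 13 bp apart. Between it and the lower pair, leukemia 1 alone had chr6:88141673-88142072, with the nearest leukemia 2 centre 11.3 kb away.

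The upper end of the Gata2 window held a tight group like those of Lyl1. Leukemia 1 had peaks at chr6:88202085-88202484, chr6:88204027-88204426 and chr6:88205392-88205791, spaced by 1942 and 1365 bp. Leukemia 2 had the first 2 of them, at chr6:88202156-88202555 and chr6:88204034-88204433, 1878 bp apart. As at Lyl1, an outermost member was the one found in leukemia 1 alone, here 1358 bp from the nearest leukemia 2 centre. The offsets of the 5 shared Gata2 regions ran from 7 to 71 bp. Of the 14550 tiles of 180 kb, 22% had a leukemia 1 peak and 0.158% had 7 or more. For leukemia 2, 16.9% had a peak and 0.254% had 5 or more, and 0.137% of tiles had 5 or more shared peaks. A tile edge cut the upper group off from the rest of the Gata2 peaks. One more shared region lay just outside, 4.86 kb below the window in leukemia 1 (chr6:88024938-88025337) and 4.95 kb in leukemia 2 (chr6:88024851-88025250). The group at the upper end lies 4.41 kb or more inside the edge. In GRCm38.p6 the neighbours of Gata2 are Rpn1, a subunit of the oligosaccharyl transferase, and Dnajb8.

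Runx1, which encodes the DNA-binding subunit of core binding factor, had scattered single peaks. The 3 peaks of leukemia 1 lay at chr16:92715751-92716150, chr16:92801814-92802213 and chr16:92871935-92872334. All 3 were found in leukemia 2, at chr16:92715769-92716168, chr16:92801725-92802124 and chr16:92871828-92872227. Their centres were 18, 89 and 107 bp apart. Runx1 was the only one of the 7 loci with more peaks in leukemia 2, through chr16:92822460-92822859, which lay 20.6 kb from the nearest leukemia 1 centre. With the window widened by 50 kb on each side, the counts were equal, at 5 peaks in each leukemia. No 2 Runx1 peaks of leukemia 1 were closer than 70121 bp, and those of leukemia 2 no closer than 20735 bp. Tiles of 500 kb had a peak in 40.1% of cases in leukemia 1 and 33.2% in leukemia 2. Leukemia 1 had 3 or more peaks in 16.3% of tiles, leukemia 2 had 4 or more in 5.32%, and 7.89% had 3 or more shared peaks. A larger share of tiles thus reached the count of Runx1 than reached those of Lyl1 and Gata2. A further shared region lay 29.9 kb above the window, at chr16:93129735-93130134 in leukemia 1 and chr16:93129737-93130136 in leukemia 2.

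Erg, the gene of the factor that was immunoprecipitated, had 1 peak in 540 kb, and it was shared. It lay at chr16:95660790-95661189 in leukemia 1 and chr16:95660767-95661166 in leukemia 2, with centres 23 bp apart. The nearest other peak of its own list was 386 kb away in both leukemias, the most isolated of the heptad peaks. Below it, leukemia 1 had no peak for 913 kb. A tile of 540 kb held at least 1 peak of leukemia 1 in 42.1% of cases, 1 of leukemia 2 in 34.9% and a shared peak in 32.5%. In GRCm38.p6 the gene after Erg is Ets2, another ETS factor, and the gene before it is Kcnj15, a potassium channel gene.

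Fli1, the closest relative of ERG among the 7 and a factor of megakaryocytes and blood vessels, had no peak in either list. The empty stretch was far longer than the window. In leukemia 1 the peaks on either side were 1071 kb below and 2424 kb above the window. In leukemia 2 they were 1120 kb below and 2525 kb above. The interval free of peaks was 3.72 Mb in leukemia 1, and 111 of 5718 intervals between neighbouring peaks (1.94%) were as long or longer, this one included. In leukemia 2 it was 3.87 Mb, and 127 of 3731 intervals (3.4%) were as long or longer. Such long intervals together made up 27.3% of the length covered by leukemia 1 and 34.7% of that covered by leukemia 2. Tiles of 220 kb had no peak in 75% of cases for leukemia 1 and 80.5% for leukemia 2, that is, 25% and 19.5% had one. The gene next to Fli1 in GRCm38.p6 is Ets1, a further ETS gene.

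**Figure D3:**
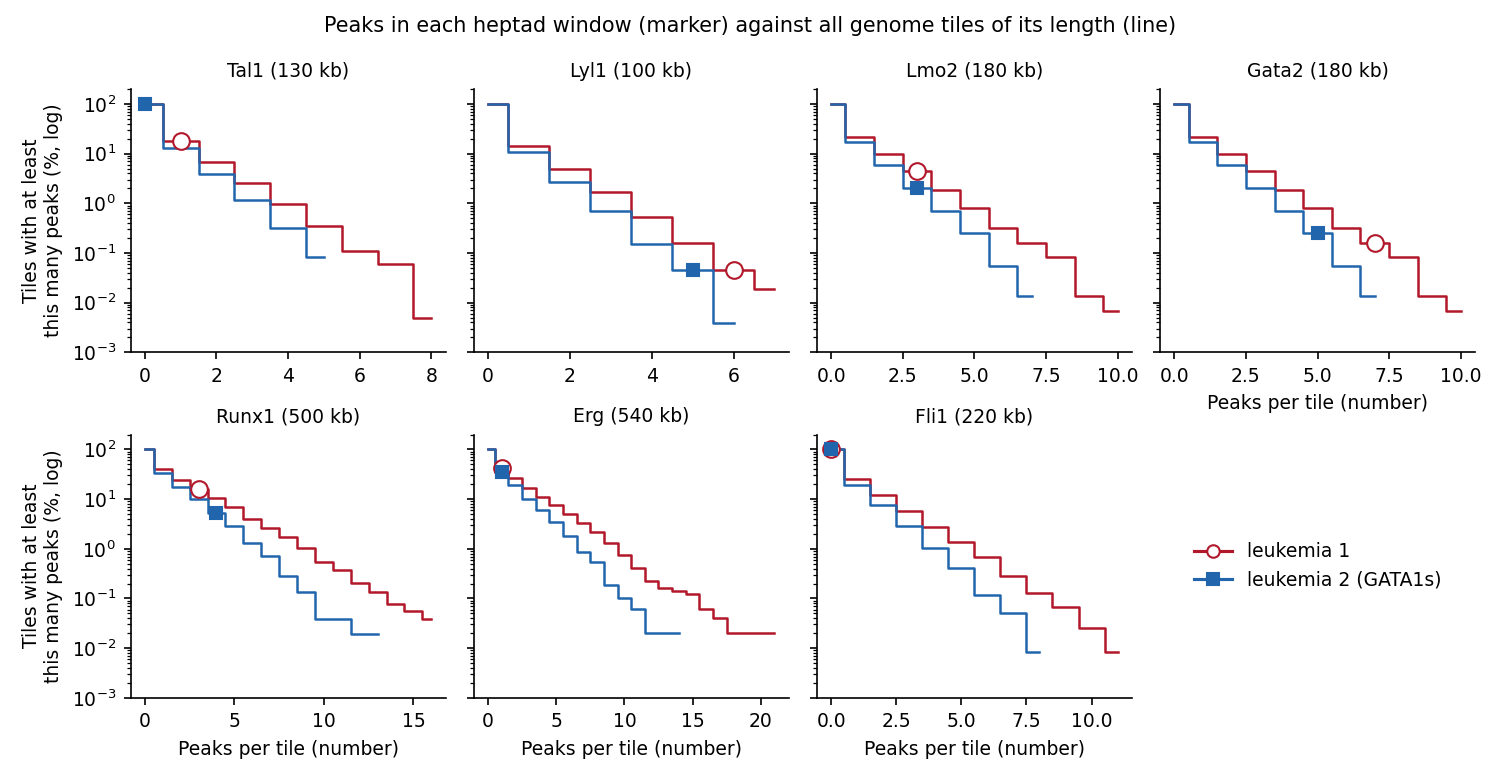
Share of all genome tiles, in percent on a log axis, that hold at least a given number of ERG peaks (lines), for tiles of the length of each heptad window, with the count in the window itself as a marker (open circle for leukemia 1, filled square for leukemia 2). The Lyl1 and Gata2 markers sit between 0.0458% and 0.254%, and those of Erg and of Tal1 in leukemia 1 at 17.7% or more. The markers of Fli1 and of Tal1 in leukemia 2 stand for a count of 0, which every tile reaches by definition.

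The centres of the 16 shared heptad peaks were a little further apart in the median than those of all shared peaks, a difference that was not tested. The distance between the 2 centres had a median of 23 bp over the 16 regions (quartiles 11.5 and 75.5, range 1 to 167), beside a median of 12 bp over all 3201. It was under 50 bp at 11 of the 16 (68.8%), beside 82.2% of all shared peaks. It was over 100 bp at 2 of the 16, at Lmo2 and Runx1, beside 9.03%. The loci differed among themselves, with medians of 10 bp at Lyl1, 26 bp at Gata2, 89 bp at Runx1 and 95 bp at Lmo2, the last over 2 regions. The Lyl1 median was thus below that of all shared peaks, and the 2 widest offsets came from the few regions of Runx1 and Lmo2. The next widest, 100 bp, was at Lyl1. The leukemia 2 centre lay at the higher coordinate in 8 regions and at the lower in 8. At 400 bp of width, every shared pair overlapped by 233 bp or more.

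**Figure D4:**
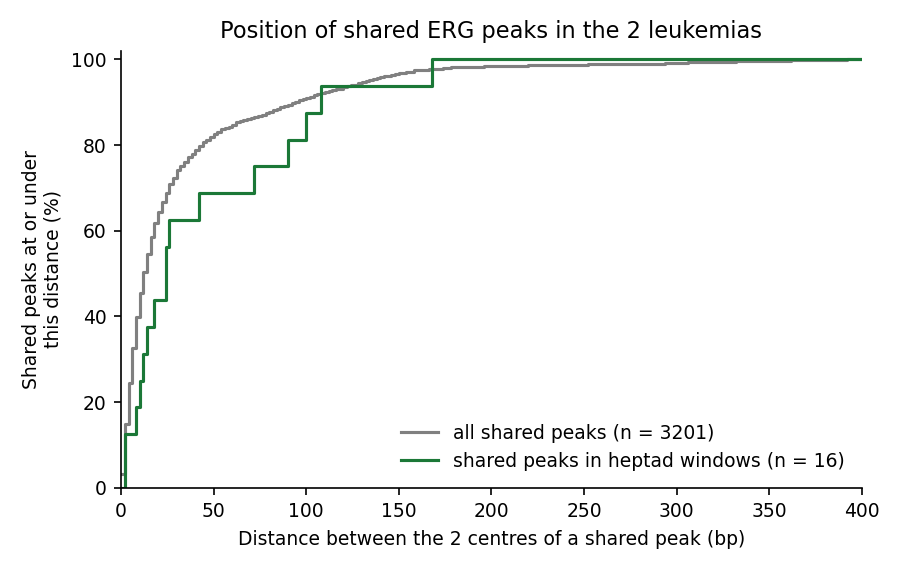
Cumulative share in percent of shared ERG peaks by the distance in bp between their centres in leukemia 1 and leukemia 2, for the 16 in heptad windows and for all 3201. The heptad line lies below the other from 0 to 100 bp, with medians of 23 and 12 bp.

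Heptad peaks had close neighbours more often than the lists as a whole, through Lyl1 and Gata2. Neighbours were counted within a clustering distance that lies between 5 and 50 kb and is given in bp with the processing. Within it, 15 of the 21 peaks of leukemia 1 had a neighbour (71.4%, interval 50 to 86.2), beside 25% of the list. In leukemia 2 these were 9 of 18 (50%, interval 29 to 71), beside 16.7%. Of the 15, 7 were at Gata2, 6 at Lyl1 and 2 at Lmo2, and of the 9, 5 were at Lyl1 and 4 at Gata2. None of the Tal1, Runx1 or Erg peaks had a neighbour at this distance in either leukemia. The Tal1 peak missed the limit narrowly, with its nearest leukemia 1 neighbour 12660 bp away, below the window. Neighbours count each other, so these peaks are not independent. Within 5 kb the numbers were 9 of 21 in leukemia 1, beside 11.8% of the list, and 7 of 18 in leukemia 2, beside 7.62%, all at Lyl1 and Gata2. Within 50 kb they were 17 of 21, beside 56.2%, and 16 of 18, beside 44.6%, and at that distance Lmo2 in both leukemias and Runx1 in leukemia 2 contributed 3 peaks each.

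The tight groups of 3 are rare in the lists. Runs of at least 3 peaks with no gap over 5 kb numbered 28 in all of leukemia 1, and 3 of these 28 lay in the heptad windows. They are the lower Lyl1 group, the upper Lyl1 group and the upper Gata2 group, spanning 4146, 3500 and 3307 bp between the outer centres. Their 9 peaks are 42.9% of the 21 heptad peaks of leukemia 1, beside 87 of the 5738 peaks of the list (1.52%) in such runs. In leukemia 2 there were 14 such runs with 1.17% of its peaks, of which 1 was in the windows, the upper Lyl1 group, at 3489 bp. In leukemia 2 the lower Lyl1 group and the Gata2 group were each listed as a pair.

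**Figure D5:**
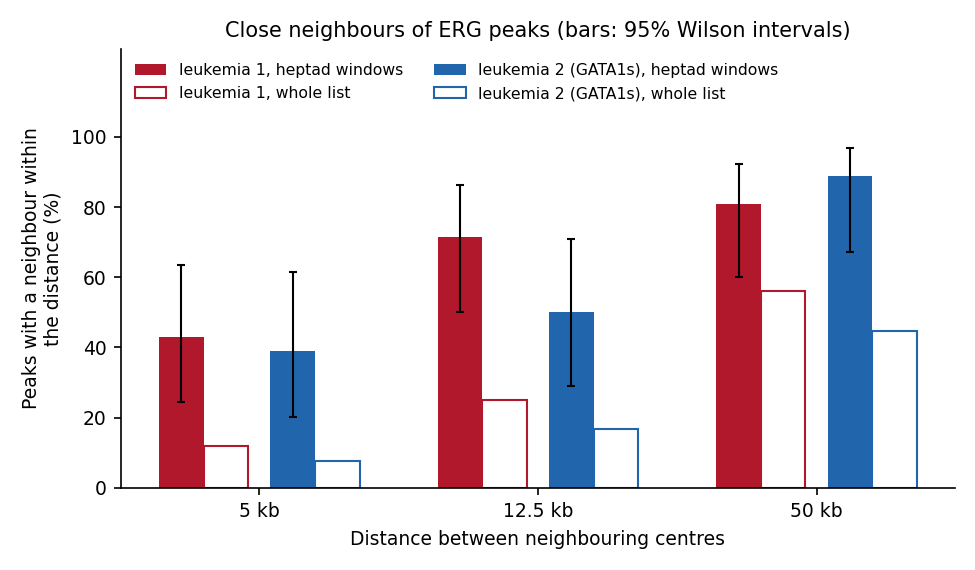
Share in percent of ERG peaks with another peak of the same list within 5 kb, the clustering distance and 50 kb, for heptad windows (filled bars, with 95% Wilson intervals) and whole lists (open bars), by leukemia. Filled bars stand above open bars at each distance, for example 71.4% against 25% within the middle distance in leukemia 1.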

How the data were processed

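Per the submitters' processing notes, Bowtie was used to align reads to mm9. How peaks were called, at what threshold and with what use of IgG is not given in the sources used here. Both lists carry chromosome, start and end, as the authors deposited them, and each list belongs to the ERG sample whose title is in its name. They hold no score, count or depth. Starts are printed counted from 1. The members and lists were chosen with earlier results of these data known, so counts and shares are described and not tested.

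Windows were read from the stated rule, peaks assigned by centre, and sharing defined by an overlap of at least 1 bp. All 7 genes are named, with every region of the 7 windows. The clustering distance between centres was 12500 bp. Distances of 5000 and 50000 bp, other overlap rules, windows widened by 50 kb or narrowed by 20 kb, merged peaks and shifted tiles were alternatives. Peaks were not placed on genes, since the gene and promoter tables are of GRCm38.p6 and coordinates were not converted. 1 gene of the network list is not reported here. Functions were tested on simulated lists. Python 3.11.15, NumPy 2.4.6, SciPy 1.17.1 and matplotlib 3.10.9 were used.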

Additional observations from a re-analysis of the deposited data

How the results depend on the processing

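The peak totals of 21 and 18 and the 16 shared regions stayed within 1.5 times of these values under each alternative run for them. With centres within 50 bp as the rule for sharing, the share fell to 52.4% of the heptad peaks of leukemia 1 and 61.1% of those of leukemia 2. Over the whole lists, 2631 shared pairs had centres under 50 bp apart, among 5738 peaks of leukemia 1 and 3751 of leukemia 2. The leukemia 2 heptad share was then below that of its list, and the leukemia 1 share was still above. The number of heptad peaks with a neighbour was 15 and 9 within the clustering distance, 9 in leukemia 1 within 5 kb and 16 in leukemia 2 within 50 kb. The direction of these changes follows from the stricter or looser limit itself. Counts of single loci moved with the window edges. Narrowing each side by 20 kb left 3 peaks at Lyl1 in both leukemias, 4 and 3 at Gata2 and 0 at Tal1. Widening by 50 kb gave 3 peaks at Tal1 in leukemia 1 and 5 at Runx1 in both leukemias, while Fli1 kept 0 in both lists. In the widened windows 66.7% of the leukemia 1 peaks and 90% of the leukemia 2 peaks were shared. Among tiles with a peak of either list, 0.298% had as many peaks as Lyl1 in each leukemia, and 0.685% and 1.1% as many as Gata2. No paired analysis was possible because only 1 ERG library exists per leukemia here. The alternative that needs a peak score could not be computed. Unknown depth and calling threshold limit what a missing peak can show.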
